A study of Homo sapiens with 12 samples.

Results

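Genes that mark the passage of cells between an epithelial and a mesenchymal state were followed across the 4 cell lines of an RNA sequencing experiment on the miRNA-processing enzyme DICER1. They were taken from the deposited table by gene name, as 10 of its 58302 gene rows: the cadherins CDH1 and CDH2, the epithelial surface protein EPCAM, the mesenchymal proteins VIM and FN1, and the transcription factors ZEB1, ZEB2, SNAI1, SNAI2 and TWIST1. The lines were the human papillary thyroid carcinoma line TPC1, labelled wt and untreated, and D11, WB1 and TD5, each labelled DICER (+/-) and made from TPC1 by transient transfection of a CRISPR/Cas9 plasmid aimed at exon 11 of DICER1. Each of the 3 was grown from a single sorted cell, so it is 1 clone, and what differs between a clone and TPC1 can follow the deletion or the clone; these cannot be told apart. Each line had 3 libraries of poly(A) RNA. Nothing in the labels says that the libraries came from separate cultures, so p-values measure only the spread between these libraries, which may be technical.

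Values are scaled reads: the authors brought each library to 20000000 reads and rounded up to whole numbers, and the estimated reads behind them were 12700000 to 21020000 per library. A floor of 3 reads was 2.85 to 4.72 scaled reads, which covers counting error only. For tests, values per 1000000 of the library sum were compared as log2(value per 1000000 + 1) with limma, which understates the change of low genes, and p-values were adjusted over the 16027 genes that reached 1 per 1000000 in 3 or more libraries. Log2 changes below are on this log2(value per 1000000 + 1) scale, so for low genes they are smaller than the ratio of mean scaled reads. Of the 10 genes 8 were tested, and CDH1 and EPCAM were too low. A gene is said to differ at an adjusted p under 0.05, and is called where it also changed at least 1.5-fold.

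Epithelial cells hold together through E-cadherin, the product of CDH1. In an epithelial-mesenchymal transition the zinc finger proteins SNAI1, SNAI2, ZEB1 and ZEB2 and the helix-loop-helix protein TWIST1 repress CDH1 and other junction genes, and cells gain N-cadherin (CDH2), the intermediate filament vimentin (VIM) and the matrix protein fibronectin (FN1). The miR-200 family holds ZEB1 and ZEB2 down, ZEB1 and ZEB2 repress the miR-200 genes in turn, and all of these miRNAs are cut from their precursors by DICER1, which is why these genes bear on a DICER1 deletion.

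The 5 miR-200 sequences are shown because 2 seeds divide them, and with them miR-34a, which is known to target SNAI1. They are mature sequences from RefSeq (GRCh38.p14), 5′ to 3′, with the seed, bases 2 to 8, in capitals. The first pair shares one seed and the next 3 share the other.
hsa-miR-200a-3p: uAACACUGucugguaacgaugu
hsa-miR-141-3p: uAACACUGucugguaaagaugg
hsa-miR-200b-3p: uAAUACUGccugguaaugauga
hsa-miR-200c-3p: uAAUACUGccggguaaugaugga
hsa-miR-429: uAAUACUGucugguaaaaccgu
hsa-miR-34a-5p: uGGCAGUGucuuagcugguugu

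The 7 letters that pair with these seeds are CAGTGTT for miR-200a and miR-141 and CAGTATT for miR-200b, miR-200c and miR-429. They were searched on the sense strand of the 3′ UTR of each gene's MANE transcript (GENCODE 44, GRCh38), and no position can match both. The 3′ UTR of ZEB1 (2540 bases) held 3 CAGTGTT and 6 CAGTATT, and that of ZEB2 (5370 bases) held 4 and 5. Only 0.0685% of the 11685 tested genes with a 3′ UTR of at least 100 bases held 9 or more, and 34.8% held at least 1. The median length of these UTRs was 1432 bases, shorter than those of ZEB1 and ZEB2, and the shares were not matched for length. FN1 held 2 CAGTATT in 690 bases, a number that 13.5% of 3′ UTRs reached, SNAI2 held 1, and the other 6 members held 0. Matches of each kind from ZEB1 and ZEB2, and the first match of FN1, follow with the matching letters in capitals, 10 bases before and 5 after, and the position of the capitals on GRCh38.
ZEB1, chr10:31527633-31527639, plus strand: tttatcttatCAGTATTatcac
ZEB1, chr10:31528797-31528803, plus strand: tttgatttaaCAGTGTTatgtt
ZEB2, chr2:144388990-144388996, minus strand: tacaatgcatCAGTATTatgat
ZEB2, chr2:144389237-144389243, minus strand: aaattttgtaCAGTGTTaaggc
FN1, chr2:215361304-215361310, minus strand: caataccgctCAGTATTttaaa

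A match is a description of the letters and not a proven site. The mature miRNAs cannot be read from these libraries, which were made from poly(A) RNA. Of their host transcripts in the table, MIR200CHG, from which miR-200c and miR-141 are cut, and MIR205HG, the host of miR-205, were at 0 in all 12 libraries. MIR34AHG, the host of miR-34a, had 49.7 ± 8.08 scaled reads (SD, n = 3) in TPC1, with 106 ± 17.4 for D11, 83 ± 8.72 for WB1 and 54 ± 14.9 for TD5. It was called higher in D11 (log2 change 0.85, adjusted p = 0.000761 from limma) and differed in WB1 (0.57, adjusted p = 0.0103). In TD5 its log2 change was 0.08 (adjusted p = 0.803). A single match to the miR-34a seed, CACTGCC, of which 18.3% of the 3′ UTRs held at least 1, lay in each of SNAI1 and ZEB1.

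The targeted gene DICER1 had 1360, 1129 and 1101 scaled reads in TPC1, with 977, 1051 and 1093 for D11, 881, 939 and 815 for WB1 and 643, 627 and 809 for TD5. It passed the limma test in WB1 (−0.43 on the log2 scale, adjusted p = 0.00404) and TD5 (−0.77, adjusted p = 9.02e-05) and not in D11 (−0.19, adjusted p = 0.138). No clone overlapped TPC1, as held for 50.6%, 45.3% and 26.5% of all genes in D11, WB1 and TD5. The labelled thyroid cell type was only partly visible: PAX8, a thyroid transcription factor, had 7248 to 9879 scaled reads, while TSHR, NKX2-1 and SLC5A5 were at 0 in all 12 libraries and TG had 11 to 27. Of 4 epithelial keratins 2 were high, with 10280 to 16274 scaled reads of KRT8 and 5237 to 7775 of KRT18. KRT7 had 209 to 308 and KRT19, which was not tested, 0 to 6. KRT8 and KRT18 differed from TPC1 in every clone, all lower by 0.23 to 0.47 on the log2 scale, while KRT7 did not differ in any (adjusted p from limma 0.312, 0.113 and 0.880 in D11, WB1 and TD5). Markers of other cell types were low: the 4 endothelial markers summed to 0 to 9 scaled reads with CDH5 at 0, and PTPRC and CD3E of leukocytes had 0 to 3 and 0, while CD68 made up nearly all of the leukocyte sum of 926 to 1518. The 5 fibroblast markers, of which DCN was at 0, summed to 147 to 175 scaled reads in TPC1, D11 had 69 to 99, WB1 199 to 299 and TD5 48 to 63, carried by LUM and COL1A1. Most of the movement was that of LUM, with means of 71.3, 0, 166 and 0.667 in TPC1, D11, WB1 and TD5, against 84.3, 77.7, 78.7 and 53.3 for COL1A1. LUM, and with it the sum, moved in the directions of FN1 below, and its part in FN1 was not tested.

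Both epithelial members were at the limit of detection in TPC1 and in all 3 clones. CDH1 (GRCh38 chromosome 16, 68737292 to 68835537) had 2, 0 and 0 scaled reads in TPC1, with 0, 2 and 0 for D11, 0, 0 and 2 for WB1 and 2, 0 and 0 for TD5, in all about 5 reads over 12 libraries. EPCAM (chromosome 2, 47345158 to 47387601), a surface glycoprotein of epithelial cells, had 2, 2 and 0 in TPC1, with 0, 2 and 2 for D11, 0, 0 and 0 for WB1 and 0, 5 and 3 for TD5. No library held more than 3 reads of either gene, so no difference between lines was detectable at this depth. Per base of transcript, CDH2 was at least 159-fold above a floor of 3 reads of CDH1 in every library.

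The mesenchymal members were among the most abundant transcripts of these cells. Per kilobase of the MANE transcript, the mean level over 12 libraries was 15700 scaled reads for VIM and 10100 for FN1. FN1 took 0.34% to 0.563% of all scaled reads and ranked 1 to 6 among genes by scaled reads, while VIM ranked 18 to 23. Among the transcription factors SNAI2 was highest, with 559 per kilobase, followed by ZEB1 (221), SNAI1 (120), ZEB2 (39.8) and TWIST1 (18.4), and CDH2 (199) stood between ZEB1 and SNAI1. Neighbours in this order were separate in every library of all lines except ZEB1 and CDH2, whose ranges were 151 to 288 and 166 to 239 per kilobase, and CDH2 and SNAI1, of which SNAI1 reached from 92.1 to 196. The order of ZEB1 and CDH2 itself turned: in TPC1 the mean level of CDH2 was above that of ZEB1 (215 ± 16.4 against 169 ± 16.3 per kilobase, SD, n = 3), and in D11 it was below (227 ± 10.9 against 253 ± 28.3). Within the paralog pairs, ZEB1 was 5.55-fold above ZEB2 and SNAI2 4.66-fold above SNAI1 per kilobase.

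**Figure D1:**
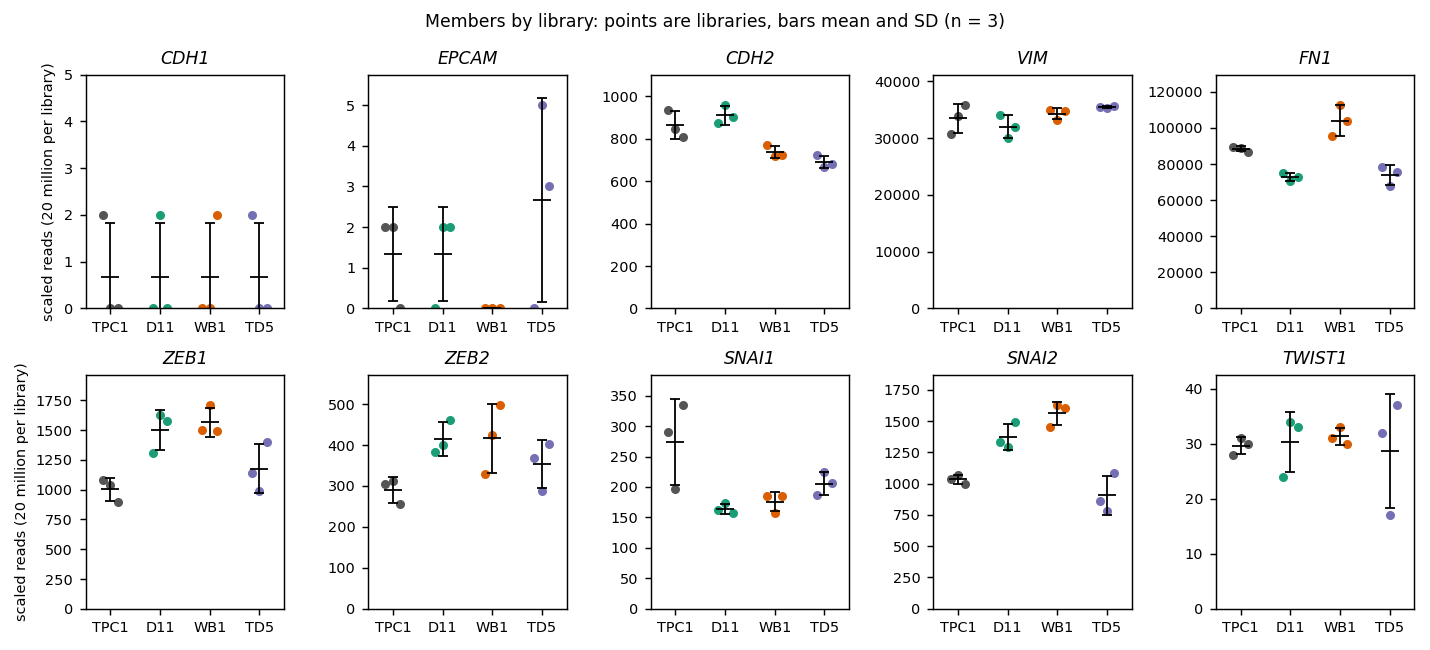
Scaled reads (out of 20000000 per library) of the 10 genes in each of the 12 libraries, 1 panel per gene, with lines on the horizontal axis. Points are libraries and bars the mean with SD (n = 3); ZEB1, ZEB2 and SNAI2 lie higher in D11 and WB1 than in TPC1, SNAI1 lies lower there, and CDH1 and EPCAM stay at 0 to 5 scaled reads.

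Among the targets of miR-200, ZEB1 and ZEB2 rose in D11 and WB1. ZEB1 (chromosome 10, 31318495 to 31529814) had 1082, 1038 and 897 scaled reads in TPC1, with 1312, 1624 and 1576 for D11, 1498, 1709 and 1497 for WB1 and 1138, 992 and 1404 for TD5. All libraries of D11 and WB1 lay above all of TPC1, while TD5 overlapped it. By limma the log2 change was 0.57 ± 0.11 (standard error, adjusted p = 0.00149) for D11 and 0.63 ± 0.11 (adjusted p = 0.000661) for WB1, and of these WB1 was called. Leaving out libraries moved both across 1.5-fold but not across the test: WB1 was at 0.55 without the third TPC1 library and 0.57 without its own second, and D11 at 0.62 and 0.59 without the first or the second TPC1 library and 0.66 without its own first. TD5 was at 0.21 with a 95% interval of −0.02 to 0.45 (adjusted p = 0.228 from limma), and without its second library, the lowest, at 0.33 (adjusted p = 0.0492).

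ZEB2 (chromosome 2, 144364364 to 144521057), the less abundant paralog, had 304, 312 and 255 scaled reads in TPC1, with 382, 399 and 461 for D11, 329, 425 and 497 for WB1 and 369, 288 and 402 for TD5. Again D11 and WB1 lay wholly above TPC1, WB1 with the wider spread, and TD5 overlapped it. By limma the log2 change was 0.48 for both D11 (adjusted p = 0.0141) and WB1 (adjusted p = 0.0156), that is 1.40-fold and 1.39-fold. Both rested on single libraries: without the third TPC1 library they were 0.40 (adjusted p = 0.0761) and 0.40 (adjusted p = 0.0834), D11 without the third of its libraries was 0.41 (adjusted p = 0.0708), and WB1 without its second or the third was 0.46 (adjusted p = 0.0528) or 0.35 (adjusted p = 0.0735) and without its first, the lowest, 0.63 and called. TD5 was at 0.26 with an interval of −0.03 to 0.55 (adjusted p = 0.246 from limma). With each library corrected for GC content, the ZEB2 change was 0.23 for D11 (adjusted p = 0.191) and 0.27 for WB1 (adjusted p = 0.123) and no longer passed the limma test, nor did it with a correction for transcript length (0.33 for both, adjusted p = 0.0508 and 0.0522), whereas ZEB1, at 0.32 and 0.43 with the GC correction, still did. The transcripts of both genes had a low GC content, 38.9% for ZEB1 and 39.0% for ZEB2.

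Antisense genes lie opposite both. ZEB1-AS1 had 42 ± 10.1 scaled reads (SD, n = 3) in TPC1, with 66.3 ± 0.577 for D11, 60.7 ± 4.51 for WB1 and 49 ± 6 for TD5, and differed in D11 (log2 change 0.49, adjusted p = 0.00906 from limma) and WB1 (0.39, adjusted p = 0.0297). ZEB2-AS1 stayed at 0 to 5 scaled reads, and VIM-AS1, opposite VIM, was at 6438 to 7969 on average in the lines. The kit kept strand, but the strand setting of the counting is not given in the sources used here, so reads of a gene and its antisense partner may be mixed.

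The paralogs SNAI1 and SNAI2 moved in opposite directions in D11 and in WB1. SNAI1 (chromosome 20, 49982980 to 49988886), the factor Snail, had 290, 196 and 334 scaled reads in TPC1, with 162, 173 and 157 for D11, 185, 158 and 185 for WB1 and 186, 224 and 207 for TD5. TPC1 had the widest spread, with its second library near the clones, yet D11 and WB1 lay wholly below it. SNAI1 fell by 0.64 on the log2 scale in D11 (adjusted p = 0.00334 from limma), which was called, and by 0.55 in WB1 (adjusted p = 0.00816 from limma), short of 1.5-fold. In TD5 the log2 change was −0.35 with an interval of −0.65 to −0.05 (adjusted p = 0.119 from limma). Without the third TPC1 library, the highest, the change was −0.49 in D11 (adjusted p = 0.0259), under 1.5-fold, and −0.40 in WB1 (adjusted p = 0.0574, limma). Without the second TPC1 library, the lowest, WB1 was called at −0.76 and TD5 passed the test at −0.56 (adjusted p = 0.00617), and WB1 was also called without its own first or the third library, at −0.59.

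SNAI2 (chromosome 8, 48917598 to 48921740), the factor Slug, had the largest log2 difference between clones of the 8 tested members, between TD5 and WB1. It had 1036, 1072 and 996 scaled reads in TPC1, with 1332, 1297 and 1493 for D11, 1454, 1626 and 1603 for WB1 and 864, 779 and 1082 for TD5. D11 and WB1 were above every TPC1 library, and 2 of the 3 TD5 libraries were below. By limma SNAI2 rose by 0.40 on the log2 scale in D11 (adjusted p = 0.00531) and by 0.58 in WB1 (adjusted p = 0.000375), which became 0.61 and 0.63, and called, without the second TPC1 or the first WB1 library. The change in TD5 was −0.20 (interval −0.40 to 0.00, adjusted p = 0.195), and without the third TD5 library, the highest, −0.33 (adjusted p = 0.0154). With the GC correction, the change in D11 was 0.21 (adjusted p = 0.0623) and no longer passed the test.

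TWIST1 (chromosome 7, 19020991 to 19117636) was the lowest of the transcription factors and did not differ in any clone. It had 28, 31 and 30 scaled reads in TPC1, with 24, 34 and 33 for D11, 31, 33 and 30 for WB1 and 32, 17 and 37 for TD5, and every clone overlapped TPC1. The log2 changes were 0.01, 0.05 and −0.05 in D11, WB1 and TD5 (adjusted p from limma 0.954, 0.834 and 0.867), and the intervals reached from −0.37 to 0.36. These libraries cannot tell a change within that range from 0. As the scale understates the change of a gene this low, the range is wider for the ratio of its scaled reads.

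Of the genes that the transcription factors act on or that mark the mesenchymal state, CDH2 fell in 2 clones, FN1 moved in both directions and VIM did not differ. CDH2 (chromosome 18, 27932879 to 28177946), N-cadherin, had 938, 847 and 810 scaled reads in TPC1, with 873, 959 and 901 for D11, 772, 719 and 723 for WB1 and 723, 665 and 682 for TD5. WB1 and TD5 lay wholly below TPC1, and D11 overlapped it. CDH2 fell by 0.22 on the log2 scale in WB1 (adjusted p = 0.0299 from limma) and by 0.32 in TD5 (adjusted p = 0.00932 from limma), and the change in D11 was 0.07 (interval −0.08 to 0.23, adjusted p = 0.445). Without the first TPC1 library, the highest, neither clone passed the limma test, with −0.16 (adjusted p = 0.125) for WB1 and −0.26 (adjusted p = 0.0565) for TD5, nor did WB1 without the second TPC1 library (−0.24, adjusted p = 0.0547) or its own second (−0.20, adjusted p = 0.0945) or the third (−0.21, adjusted p = 0.0727).

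FN1 (chromosome 2, 215360440 to 215436073) had 89614, 89012 and 86916 scaled reads in TPC1, with 75109, 70450 and 72934 for D11, 95364, 112651 and 103983 for WB1 and 78412, 67989 and 75737 for TD5. No clone overlapped TPC1: D11 and TD5 were lower and WB1 was higher. FN1 fell by 0.28 on the log2 scale in D11 (adjusted p = 0.00399 from limma) and by 0.26 in TD5 (adjusted p = 0.0139 from limma), and rose by 0.23 in WB1 (adjusted p = 0.0132 from limma). The rise in WB1 was 0.17 with median-of-ratios scaling (adjusted p = 0.092), 0.09 with each library corrected for transcript length (adjusted p = 0.338) and 0.17 without the second WB1 library (adjusted p = 0.0816). The fall in D11 passed the limma test in 23 of 23 alternatives, and that in TD5 did not without the variance trend (adjusted p = 0.0535) or without a filter on low values (adjusted p = 0.0776).

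VIM (chromosome 10, 17228241 to 17237593) had 30724, 33928 and 35818 scaled reads in TPC1, with 34028, 30096 and 31920 for D11, 34959, 33210 and 34776 for WB1 and 35414, 35315 and 35576 for TD5. Each clone overlapped TPC1, which had the widest spread, while the TD5 libraries lay above all those of D11 and of WB1. Neither of those differences passed the limma test, with TD5 against D11 at 0.15 on the log2 scale (adjusted p = 0.081) and TD5 against WB1 at 0.05 (adjusted p = 0.628). Its log2 changes were −0.06 (interval −0.19 to 0.06), 0.04 (−0.09 to 0.16) and 0.08 (−0.04 to 0.21) in D11, WB1 and TD5, with adjusted p of 0.419, 0.659 and 0.394 from limma, so changes beyond 0.21 on the log2 scale lie outside all 3 intervals.

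Set against all genes, 5 of the 8 tested members differed from TPC1 in D11, where 33.3% of all tested genes did, with 3 higher (19.9% of all genes) and 2 lower (13.4%). Of the members 1, SNAI1, was called lower there, where 4.84% of all genes were, 2.89% higher and 1.95% lower. In WB1 6 of 8 differed (30.9% of all genes), 4 higher (18.6%) and 2 lower (12.3%), and ZEB1 was called higher, where 4.99% were called, 3.39% higher and 1.59% lower. In TD5 2 of 8 differed (11.9% of all genes), 0 higher (5.32%) and 2 lower (6.57%), and by limma 0 were called, where 2.60% were, 1.12% higher and 1.48% lower. In TD5 3 members had an unadjusted p under 0.05, and voom on the estimated reads also called 0. Libraries did not overlap with TPC1 for 5, 6 and 2 of the 8, against 50.6%, 45.3% and 26.5% of all genes. For D11, WB1 and TD5 the median log2 change of the tested members was 0.04, 0.14 and −0.13, and that of all genes was 0.05, 0.06 and 0.00. The 3 comparisons share the TPC1 libraries.

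**Figure D2:**
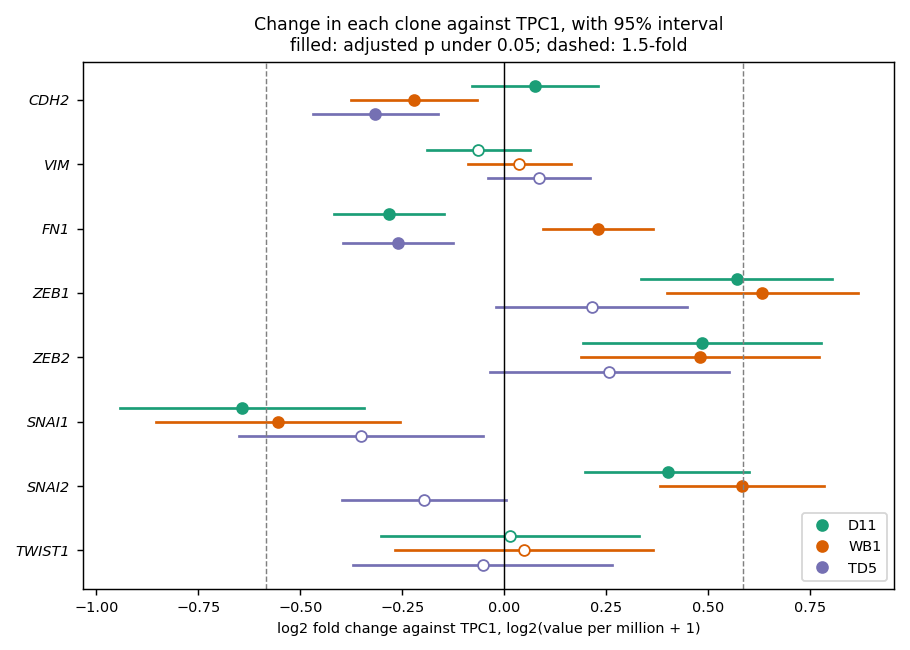
Log2 change against TPC1 of the 8 tested genes in D11, WB1 and TD5, with 95% intervals from limma and a line at 0; dashed lines stand at 1.5-fold. ZEB1, ZEB2 and SNAI2 are above 0 in D11 and WB1, SNAI1 is below 0, and FN1 is above 0 only in WB1.

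The clones also differed among themselves. SNAI2 was lower in TD5 than in D11 (log2 change −0.60, adjusted p = 0.000396 from limma) and than in WB1 (−0.78, adjusted p = 6.34e-05 from limma), with no overlap of libraries, and both differences were called. The first fell short of 1.5-fold at −0.54 without the third D11 library and at −0.57 and −0.50 without the first or the second TD5 library, and the second was called in 23 of 23 alternatives. ZEB1 was lower in TD5 than in D11 (−0.36, adjusted p = 0.0284 from limma) and than in WB1 (−0.42, adjusted p = 0.0205 from limma), though neither held without the first (−0.34 and −0.40, adjusted p = 0.0773 and 0.0554) or the second TD5 library (−0.24 and −0.30, adjusted p = 0.146 and 0.102). The first also did not hold without the second or the third D11 library (−0.30 and −0.32), nor the second without the second WB1 library (−0.36, adjusted p = 0.0981). With the GC correction (−0.14, adjusted p = 0.184), the length correction (−0.25, adjusted p = 0.0542) or the 2 lines alone, the first was lost too. Both were lost without the variance trend (adjusted p = 0.0645 and 0.0525) or without a filter on low values (adjusted p = 0.0681 and 0.0515). In all, the first passed the limma test in 14 of 23 alternatives and the second in 18 of 23. The ZEB1 libraries of TD5 overlapped those of D11 and not those of WB1. For ZEB2 the corresponding changes were −0.23 (interval −0.52 to 0.07, adjusted p = 0.246 from limma) and −0.22 (−0.51 to 0.07, adjusted p = 0.29), so TD5 was not shown to differ from the other clones. For SNAI1 they were 0.29 (−0.01 to 0.59) and 0.20 (−0.10 to 0.50).

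FN1 set WB1 apart from both other clones. It was higher by 0.51 on the log2 scale in WB1 than in D11 (adjusted p = 4.02e-05 from limma) and lower in TD5 than in WB1 (−0.49, adjusted p = 0.000125 from limma). CDH2 set D11 apart, lower in WB1 than in D11 (−0.30, adjusted p = 0.0166 from limma) and lower in TD5 than in D11 (−0.39, adjusted p = 0.00139 from limma), and the first of these did not pass the test without the second or the third library of D11 (−0.26 and −0.30) or of WB1 (−0.28 for each). In all, 2 of 8 members differed between WB1 and D11 (8.07% of all genes) and 0 were called (2.85%), 3 differed between TD5 and D11 (23.2%) with 1 called (3.99%), and 3 between TD5 and WB1 (13.6%) with 1 called (2.33%). Libraries did not overlap for 2, 4 and 5 members, against 26.8%, 37.6% and 28.9% of all genes. For WB1 against D11, 2 members had an unadjusted p under 0.05 and voom called 0 as well.

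The share of each gene's spread that lay between lines rather than between libraries of 1 line was taken as a description, without a cutoff or a test. It was 90.2% of the sum of squares for FN1, 88.1% for SNAI2, 87.1% for CDH2, 77.1% for ZEB1, 68.5% for SNAI1, 57.2% for ZEB2, 44.4% for VIM and 5.36% for TWIST1. The median over the tested genes was 58.9%.

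In D11 the GC correction moved ZEB1, ZEB2 and SNAI2 most of the 8. SNAI1 had a GC content of 58.4%, SNAI2 41.2% and CDH2 43.1%. With the GC correction the log2 change in D11 moved from 0.57 to 0.32 for ZEB1 and from −0.64 to −0.53 for SNAI1, both past the test but short of 1.5-fold. In WB1 it moved from 0.63 to 0.43 for ZEB1 and from 0.58 to 0.41 for SNAI2, both past the test, and for CDH2 from −0.22 to −0.36. In TD5 no member moved by more than 0.05 under it.

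**Figure D3:**
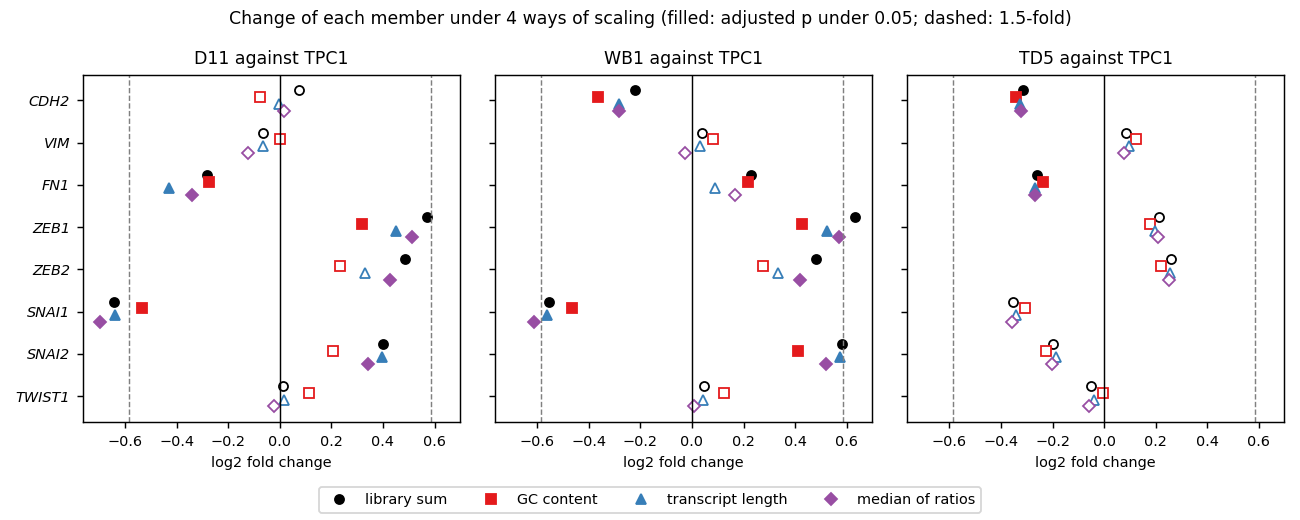
Log2 change against TPC1 of the 8 tested genes in each clone with libraries scaled by their sum, by median of ratios, and with corrections for GC content and transcript length. The GC correction brings ZEB1, ZEB2 and SNAI2 closer to 0 in D11 and WB1 without changing their sign, and takes CDH2 in D11 from 0.07 to −0.08.

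As a description over 12 libraries of 4 lines, which share their line differences and base composition, the genes most like each member were taken by Pearson r of the log2 values among the 12242 tested genes whose mean reached 5 per 1000000. For ZEB1 these were DPP8 (0.975), ARL1 (0.975) and SECISBP2L (0.974), and for ZEB2 ERICH1 (0.944), FAM122A (0.938) and SUCLG2 (0.938). For SNAI1 they were UCA1 (0.956), ARFGAP1 (0.938) and EDC4 (0.934), and for SNAI2 ERAP2 (0.970), GTF2E1 (0.962) and JARID2 (0.953). CDH2 was most like CMTM4 (0.975), SLC6A9 (0.936) and TXNRD1 (0.936), and FN1 most like ADGRL2 (0.947), NEO1 (0.943) and IGF2R (0.942). VIM and TWIST1 had their highest values with AP002490.1 (0.906) and RNF103 (0.919), followed by S100A11 (0.892) and BCL3 (0.891) for VIM and by SLC15A4 (0.815) and CIR1 (0.778) for TWIST1. No member was among the 3 genes most like another, but TWIST1, CDH1 and EPCAM were too low to be among the genes compared.

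Of the 11 corepressor genes of SNAI and ZEB, such as CTBP1, KDM1A and HDAC1, all were tested and 0 were called in any clone by limma, with 2, 1 and 0 at an adjusted p under 0.05 in D11, WB1 and TD5. Of the 8 genes that act on SNAI1 protein stability, 0 were called. With 4.84%, 4.99% and 2.60% of all genes called in D11, WB1 and TD5, lists this short would hold few or no calls at the background share, so these counts are no result about the partners. Among them BTRC, which marks Snail for degradation, was lower in all 3 clones (log2 changes −0.39, −0.32 and −0.36, adjusted p from limma 0.000825, 0.0033 and 0.00259), and LOXL2, which stabilises Snail, was lower in D11 (−0.38, adjusted p = 0.00715) and WB1 (−0.44, adjusted p = 0.00325); both were named after their values were seen. Of 11 other transcription factors of the transition, 5 were tested and 0 were called, which likewise lies near the background share. At an adjusted p under 0.05 there were 0, 1 and 1 in D11, WB1 and TD5, with TCF4 at 0.55 in WB1 (adjusted p = 0.00132 from limma), also named after its value was seen.

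Of 10 epithelial transcription and splicing factors, 4 were tested, and ELF3, an epithelial ETS factor, was the one called, in opposite directions. It had 45.7 ± 10.1 scaled reads in TPC1 (SD, n = 3), with 11 ± 1.73 for D11, 32.7 ± 10.7 for WB1 and 114 ± 42.7 for TD5. It fell by 1.07 on the log2 scale in D11 (adjusted p = 0.000946 from limma) and rose by 0.99 in TD5 (adjusted p = 0.00332 from limma).

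Of 21 other cadherins, 6 were tested, and 3 of them were called higher in WB1, where 3.39% of all genes were, with CDH6 at 287 ± 54.4 scaled reads in TPC1 and 711 ± 107 in WB1 (log2 change 1.26, adjusted p = 0.000328 from limma), CDH17 at 294 ± 47.8 and 465 ± 35.7 (0.64, adjusted p = 0.001, but short of 1.5-fold at 0.53 and 0.58 without the third TPC1 or the third WB1 library), and CDH3, P-cadherin, at 9.33 ± 3.79 and 28.3 ± 6.35 (0.72, adjusted p = 0.0027). The 0.72 of CDH3, a low gene, understates the ratio of its means. CDH3 reached the minimum level for testing mainly through WB1, with 32, 21 and 32 scaled reads there. TPC1 had 11, 5 and 12, D11 had 5, 2 and 5, and TD5 had 13, 12 and 22. Its entry into the test thus depended on its level in WB1, and so in part did its call and the count of 3 in 6. In D11 0 of the 6 were called, where 4.84% of all genes were. CDH17 also differed in TD5, at 442 ± 59.5 scaled reads (0.56, adjusted p = 0.00486 from limma), short of 1.5-fold. At an adjusted p under 0.05 alone, 0, 3 and 3 of the 6 were higher in D11, WB1 and TD5, where 19.9%, 18.6% and 5.32% of all genes were. In TD5 1 of the 6 was called higher, where 1.12% of all genes were. This was CDH16, a kidney and thyroid cadherin, at 91 ± 18.4 against 52.3 ± 5.77 (0.61, adjusted p = 0.0189 from limma), a call that was lost without the first or the third TPC1 library or the first TD5 library (adjusted p = 0.0676, 0.0743 and 0.0947 from limma). Of the 7 catenin genes, whose products bind cadherin tails, 5 were tested and JUP, plakoglobin, was called lower in D11 (528 ± 9.24 against 817 ± 47.8 scaled reads, log2 change −0.61, adjusted p = 0.00231 from limma), which was short of 1.5-fold at −0.57 without the second TPC1 library.

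Desmosome and tight junction genes were among those that fell in D11. Of 33 epithelial junction and surface genes, 18 were tested, of which 5 were called lower and 0 higher in D11, 1 lower and 0 higher in WB1, and 2 lower and 1 higher in TD5, against 1.95%, 1.59% and 1.48% of all genes called lower in D11, WB1 and TD5. The median log2 changes were −0.11, −0.06 and −0.06, and those of all tested genes 0.05, 0.06 and 0.00. The desmosomal plaque gene PKP2 stood at 233 ± 37.5 scaled reads for TPC1 and 40.7 ± 10.3 for D11, where it fell by 2.06 on the log2 scale (adjusted p = 1.14e-07 from limma). The desmosomal cadherin DSC2 stood at 52.7 ± 12 scaled reads for TPC1, 57 ± 2 for WB1 and 4 ± 4 for TD5, and in D11, with at most 2 reads in a library, it was at least 13.9-fold lower than in TPC1. CLDN1, a tight junction protein, fell from 4716 ± 341 to 2948 ± 137 scaled reads in D11 (log2 change −0.67, adjusted p = 3.73e-05 from limma). The 2 called lower in TD5 were DSC2 (−1.60, adjusted p = 2.62e-06 from limma) and PKP2 (−0.61, adjusted p = 0.0187, and at −0.50, −0.47 and −0.58 not past the test without the first TPC1, the first TD5 or the third TD5 library), and the 1 called higher was the mucin gene MUC1 (0.84, adjusted p = 0.000736). The −1.60 of DSC2, a low gene, understates the ratio of its means.

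Of 30 listed mesenchymal cytoskeleton, surface and matrix genes, 22 were tested, of which D11 had 1 called higher and 3 lower, WB1 had 3 and 6, and TD5 had 2 and 3, where 4.84%, 4.99% and 2.60% of all genes were called in either direction. By an adjusted p under 0.05 from limma alone, 1 was higher and 9 were lower in D11 (19.9% and 13.4% of all genes), 6 and 8 in WB1 (18.6% and 12.3%), and 3 and 6 in TD5 (5.32% and 6.57%). The median log2 changes were −0.23, −0.01 and −0.05, again against 0.05, 0.06 and 0.00 for all genes. TGFBI, a matrix protein induced by TGF-beta, stood at 2114 ± 15.5 scaled reads in TPC1, whereas D11 had 137 ± 13.5, WB1 2241 ± 164 and TD5 1766 ± 54.5, and it fell by 3.77 on the log2 scale in D11 (adjusted p = 5.97e-16 from limma). LUM, the matrix proteoglycan lumican, had 71.3 ± 7.64 scaled reads in TPC1 and rose in WB1 to 166 ± 40.1 (log2 change 1.01, adjusted p = 0.000114), whereas it was at 0 in all D11 libraries, at least 18.9-fold lower, and had at most 1 read in a TD5 library, at least 16.9-fold lower. The actin-binding gene TAGLN fell in all 3 clones, from 154 ± 18.2 scaled reads to 84.3 ± 6.66, 65.3 ± 22.7 and 38.7 ± 10.7 (log2 changes −0.74, −1.06 and −1.58, adjusted p from limma 0.00378, 0.000274 and 1.05e-05). MYL9, a myosin light chain, fell in all 3 clones, by a log2 change of −0.40 in D11 (adjusted p = 0.00844 from limma), short of 1.5-fold, and of −1.62 and −1.03 in WB1 and TD5, where it was called (adjusted p from limma 3.01e-08 and 5.65e-06). NT5E, which encodes CD73, was called higher in all 3 clones (0.81, 0.81 and 0.60, adjusted p from limma 5.09e-05, 4.79e-05 and 0.00121) and was named after its values were seen.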

How the data were processed

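RNA of 12 libraries, 3 each of TPC1, D11, WB1 and TD5, was assigned to lines from the sample titles. The authors prepared libraries with a stranded poly(A) kit, mapped paired reads to GRCh38 with STAR 2.5.3a, counted them on Ensembl genes with HTSeq 0.9.1 and normalized the counts to 20000000 aligned reads per library. The deposited values are whole numbers that sum to between 20009833 and 20014191, so they were treated as a score (scaled reads rounded up by the authors) and not as counts. The authors tested with edgeR (quasi-likelihood), which needs counts, and limma took its place here.

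Reads per library, 12700000 to 21020000, were estimated from the steps between whole numbers. Genes with at least 1 per 1000000 of the library sum in at least 3 libraries were fitted as log2(value per 1000000 + 1) with limma 3.58.1 in R 4.3.3, with 1 mean per line, a trend in the prior variance and Benjamini-Hochberg adjustment over all 16027. Calls needed an adjusted p under 0.05 and 1.5-fold. The procedure was tested on simulated data. No column was left without a sample.

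The members and gene lists were chosen with earlier results of these data known. The text names the 10 members, DICER1, up to 4 called genes of a list with the largest change, and the 3 genes most like each member. Some further genes are stated in place to have been named after their values were seen. The lists were other transcription factors of the transition, epithelial factors, SNAI and ZEB corepressors, SNAI1 stability, catenins, cadherins, junction genes, mesenchymal genes, miRNA hosts, antisense partners and markers of cell types. For thyroid markers 3 of 7 were tested and FOXE1 was called lower in all 3 clones, and 1 marker is not reported here. Of 4 smooth muscle markers, which summed to 321 to 405, 2 were tested and 0 called.

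Alternatives were other pseudocounts (0.1 and 4), filters, scalings, corrections for GC content and transcript length (known for 99.1% of tested genes), fits of 2 lines alone, voom on estimated reads, a replicate block, and leaving out each library. Deviations of same-numbered libraries from their line means correlated at 0.107, 0.172 and 0.348 for TD5 and D11, all over 0.1. For no other pair of lines were all over 0.1. The labels give only the number, so any pairing is read from the data. The main tests, also those of TD5 against D11, did not pair libraries, and the replicate block was used only as an alternative. 3′ UTRs and positions came from GENCODE 44 and miRNAs from RefSeq. Python 3.11.15 with numpy 2.4.6, pandas 2.3.3 and matplotlib 3.10.9 was used.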

Additional observations from a re-analysis of the deposited data

Results flagged for a closer look

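Members whose change against TPC1 differed between clones, by the limma test of the difference between the clones itself, were looked at again. FN1 was higher in WB1 than in D11 (0.51 on the log2 scale) and lower in TD5 than in WB1 (−0.49). SNAI2 was lower in TD5 than in D11 (−0.60) and than in WB1 (−0.78), so TD5 departs from the rise seen in the other clones. ZEB1 was lower in TD5 than in D11 (−0.36) and than in WB1 (−0.42), and CDH2 was lower in WB1 than in D11 (−0.30) and in TD5 than in D11 (−0.39). Of these 8 differences, those of SNAI2 were called, and the adjusted p of the 8 lay between 4.02e-05 and 0.0284. DICER1 itself was lower in TD5 than in D11 (−0.58, adjusted p = 0.000657 from limma) and than in WB1 (−0.34, adjusted p = 0.0307), and its part in the other differences was not tested. Single libraries were not tested for outliers, since each line has 3.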

How the results depend on the processing

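The number of members called depended on the threshold of 1.5-fold, near which ZEB1, SNAI1 and SNAI2 lay. Against 1 called in D11, 1 in WB1 and 0 in TD5, dropping the minimum fold gave 5, 6 and 2. In D11 a pseudocount of 4 and the GC correction gave 0 each. In WB1 a pseudocount of 0.1 gave 3, voom gave 3, and the corrections for GC content and transcript length gave 0 each. Between WB1 and D11 and between TD5 and WB1, no minimum fold gave 2 and 3. Between TD5 and D11, where 1 was called, it gave 3, while a pseudocount of 4, median-of-ratios scaling and the GC and length corrections gave 0 each. Leaving out 1 library gave 0 to 2 in D11, 0 to 4 in WB1 and 0 to 1 between TD5 and D11. With the replicate block the counts were 1 in D11, 1 in WB1, 0 in TD5, 0 between WB1 and D11, and 1 each between TD5 and D11 and between TD5 and WB1, and the block changed no call and no test result of a member. Signs turned only for members that had not passed the test. CDH2 in D11 was −0.0776 with the GC and −0.0028 with the length correction. VIM in D11 was 0.0013 with the GC correction, and in WB1 it was −0.0266 with median-of-ratios scaling and −0.0232 to 0.0873 when 1 library was left out. TWIST1 in D11 was −0.0225 with median-of-ratios scaling and −0.0401 to 0.11 with 1 library left out, and in TD5 −0.18 to 0.13. TWIST1 had no value with the filter at 5 per 1000000. Of the 32 member values followed, 330 alternative values kept direction and call, 9 lost a call and 5 gained one, and with 1 library left out these were 364, 6 and 9. Causes were not tested. Depth limits CDH1 and EPCAM, and TWIST1 rests on 17 to 37 scaled reads.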
